A study of Homo sapiens with 6 samples.

Results

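Interferon-stimulated genes are described here in 786-O cells, an established line of human clear cell renal carcinoma, into which a lentivirus had carried a short hairpin RNA (shRNA). A list of 44 such genes, without the IFITM membrane proteins, was matched to array probe sets annotated with exactly 1 gene symbol, and 42 of the 44 were measured, among 18132 genes in all. STAT2 and USP18 are not analysed here; USP18 was matched only by a probe set annotated with several symbols. The 6 single-colour Affymetrix arrays compare 3 samples that received a negative control shRNA (shNC) with 3 samples that received an shRNA targeting PLEKHO1 (shPLEKHO1). Both groups share the same line and the lentiviral delivery, the labels name no added interferon, and no cells without virus were analysed here. The labels do not say how many hairpins were used, whether the cells were 1 clone, or that the replicates came from separate cultures, so the p-values rest on the spread between these arrays alone, which may be technical.

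Interferons are secreted when a cell senses foreign nucleic acid, and they bind receptors that activate JAK family kinases and STAT transcription factors. Type I and type III interferons act through the complex ISGF3, of which IRF9 is the DNA-binding part and which binds the interferon-stimulated response element (ISRE) in front of its target genes, while interferon gamma acts through STAT dimers that bind gamma-activated sites. The induced proteins sense or degrade viral RNA, tag proteins with the ubiquitin-like ISG15, hold back virus particles at the membrane or carry the signal further. Many of these genes also have a basal level in cells that were given no interferon.

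With shPLEKHO1 the interferon-stimulated genes moved in both directions. Of 42 measured, 10 rose, 11 fell and 21 did not pass, where "rose", "fell" and "changed" mean an adjusted p under 0.05 in limma after Benjamini-Hochberg adjustment over 18132 genes. The share that changed was 50%, against 34.1% of all genes (18.1% rose and 16% fell). The median log2 difference was -0.01 over the 42 genes and 0.01 over all genes, with every difference taken as shPLEKHO1 minus shNC of log2(intensity + 1). In such bulk samples, fewer cells that express a gene and less RNA per cell cannot be told apart. The largest fall was that of PLSCR1 and the largest rises were those of GBP1 and ISG20, and these 3 genes were the ones that changed at least 2-fold (7.14%, against 1.75% of all genes). A change of at least 1.5-fold was seen in 10 of the 42 genes (23.8%), against 7.21% of all genes. The list was chosen with earlier results of these data known. The shares of changed genes and probe sets, here and below, therefore do not test whether this class changed more than other genes.

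The share of changed genes differed with brightness. A gene is called dim here where the means of both groups were below 81.7, the median intensity of all genes tested. Of 28 interferon-stimulated genes that were not dim, 18 changed (64.3%), against 55.9% of all genes that were not dim. Of 14 dim ones, 3 changed (21.4%), namely OAS1, GBP2 and ISG20, against 11.2% of all dim genes. The fold shares of all genes differed with brightness too. At least 2-fold changes were 3.17% of genes that were not dim and 0.26% of dim genes. At least 1.5-fold changes were 12.5% and 1.69%. The values of the 2 groups did not overlap in 24 of 42 genes, against 43.1% of all genes. All 21 genes that changed were among these 24, as were IRF1, HERC6 and IFI35. Adding 1 before the log makes differences at low intensity smaller, and so does leftover background that is equal in both groups. The array's background probe sets were not all equal. The log2 ratio of their group means, shPLEKHO1 over shNC, was 0.00 with 10 G or C bases, 0.10 with 19 and 0.19 with 24. Whether leftover background made the differences of listed genes smaller or larger was not tested.

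**Figure D1:**
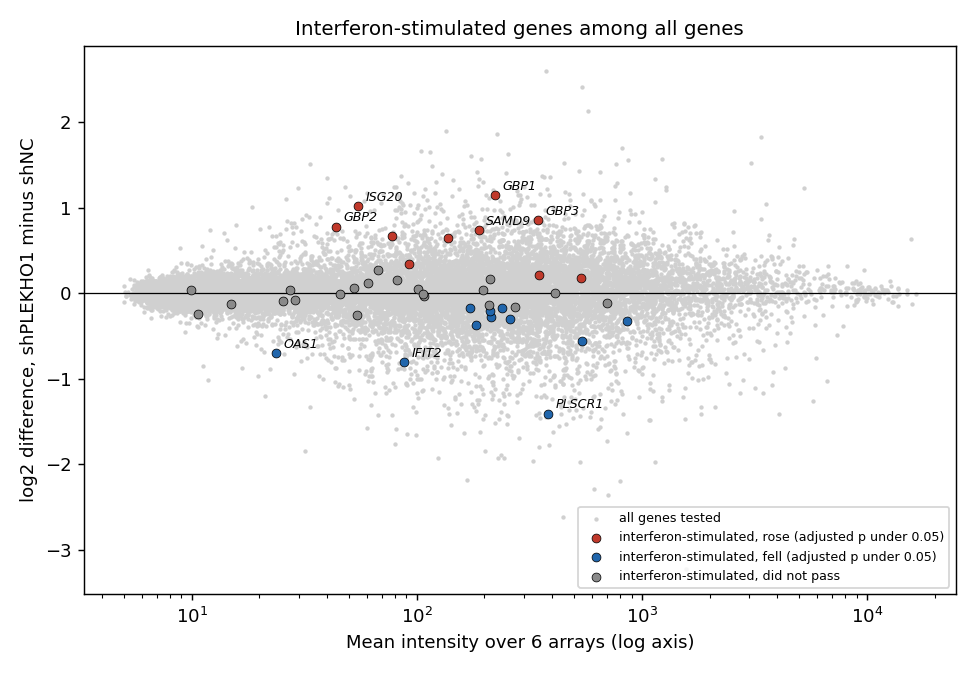
Each point is a gene, with its mean intensity over the 6 arrays on a log axis and its log2 difference (shPLEKHO1 minus shNC) on the vertical axis; grey dots are all 18132 genes and coloured points the 42 interferon-stimulated genes. These genes lie on both sides of 0, with PLSCR1 lowest at -1.41 and GBP1 highest at 1.15.

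PLEKHO1, the gene the shRNA targets, was read from its only probe set. Its intensity was 135, 143 and 126 with shNC and 110.3, 116 and 97.4 with shPLEKHO1, and it fell 1.25-fold (log2 difference -0.32 ± 0.08, limma adjusted p = 0.0123). An exact permutation test of the same values, two-sided, gave p = 0.1, the smallest that 3 against 3 arrays allow. Median intensity per array ranged from 55.7 to 57.1. Of 7 listed markers of renal epithelium and clear cell carcinoma, 5 were measured, without CA9 and NDUFA4L2. VIM was at 14470 to 15545 and did not pass (0.04 ± 0.04), and the other 4 changed with the groups. PAX8 (-0.25 ± 0.06, limma adjusted p = 0.0165) and PAX2 (-0.33 ± 0.08, 0.0158), transcription factors of the renal lineage, fell, and the keratins KRT8 (0.32 ± 0.04, 0.000904) and KRT18 (0.52 ± 0.06, 0.00034) rose. PAX8 did not pass without shPLEKHO1 replicate 2 (limma adjusted p = 0.0543), nor PAX2 without shNC replicate 1 (0.0549) or 2 (0.0561). The part of these changes in the results was not tested. PAX8 was at 348 to 473, whereas the leukocyte marker PTPRC was at 5.90 to 7.03. None of 4 leukocyte and 3 endothelial markers passed, and their summed intensity was 113 to 141 and 135 to 160.0 with shNC, and 123 to 134 and 133 to 139 with shPLEKHO1. PECAM1, VWF and CD79A read well above PTPRC, at 42.8 to 101.

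The response element of this gene class was looked up in front of the listed genes. RefSeq promoter windows of build GRCh38.p14, from 250 bases before to 50 after a transcription start, were given for 36 of the 44 genes. The ISRE core, written as GAAA, any 2 bases and GAAA (TTTC, any 2 bases and TTTC on the other strand), was found in a window of 24 of these 36 genes (66.7%), against 4.38% of all 27305 genes with a window. The following stretches show it, with the core in capitals, in front of 5 genes that rose and 5 that fell; they are the largest changes with a core whose whole stretch lies upstream of the start, leaving out IFI44, where the stretch reaches past another listed start. Each is printed 5′ to 3′ on the strand of its gene.
GBP1, chr1:89065311-89065350, minus strand: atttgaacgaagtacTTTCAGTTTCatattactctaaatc
ISG20, chr15:88638932-88638971, plus strand: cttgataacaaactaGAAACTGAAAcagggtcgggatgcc
SAMD9, chr7:93118091-93118130, minus strand: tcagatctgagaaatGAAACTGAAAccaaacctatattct
IFIH1, chr2:162318813-162318852, minus strand: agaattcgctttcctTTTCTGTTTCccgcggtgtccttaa
IFIT5, chr10:89414508-89414547, plus strand: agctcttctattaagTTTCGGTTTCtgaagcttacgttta
PLSCR1, chr3:146544662-146544701, minus strand: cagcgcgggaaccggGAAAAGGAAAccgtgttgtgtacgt
PARP14, chr3:122680795-122680834, plus strand: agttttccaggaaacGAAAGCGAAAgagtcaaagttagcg
BST2, chr19:17405736-17405775, minus strand: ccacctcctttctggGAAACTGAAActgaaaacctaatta
ISG15, chr1:1013375-1013414, plus strand: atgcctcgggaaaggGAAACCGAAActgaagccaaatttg
IFIT3, chr10:89327860-89327899, plus strand: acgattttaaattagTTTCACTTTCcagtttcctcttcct
The first 5 belong to genes that rose and the last 5 to genes that fell, and each was picked for having the core. GBP1, IFIH1, IFIT5 and IFIT3 carry the core in the TTTC orientation and the others in the GAAA orientation. In front of BST2, ISG15 and IFIH1 a further core overlaps the marked one. Among the 24 measured genes with a core in a window, 8 rose, 7 fell and 9 did not pass, with a median log2 difference of 0.02. Among the 11 measured genes whose windows lack these letters, 1 rose, 3 fell and 7 did not pass, with a median of -0.11. The core of gamma-activated sites, TTC, any 3 bases and GAA, reads the same on both strands and was in a window of 12 of 36 genes (33.3%), against 9.38% of all genes with a window. Of these 12, 2 rose, 6 fell and 4 did not pass, with a median of -0.19, and of the 23 without it, 7 rose, 4 fell and 12 did not pass, with a median of 0.04. How many of all genes with or without these letters changed was not counted, so the counts by motif have no background. These matches describe letters in a window and no binding was measured.

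PLSCR1, which codes for phospholipid scramblase 1, a membrane and nuclear protein that restricts virus entry, had the largest change. Its intensity was 584, 532 and 562 with shNC and 207, 224 and 197 with shPLEKHO1. All shPLEKHO1 arrays were below all shNC arrays by a wide margin, and PLSCR1 fell 2.65-fold (log2 difference -1.41 ± 0.05, 95% confidence interval -1.53 to -1.29, limma adjusted p = 2.06e-06). Only 57 of the 18132 genes had a lower log2 difference. All 6 of its probe sets fell, with log2 differences between -2.02 and -0.37. The probe set read here and another were of nearly the same brightness, and by the other one, which is brighter in mean intensity, the difference was -1.75.

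The guanylate-binding proteins, interferon-induced GTPases that coat the membranes of pathogens and their vacuoles, all rose. GBP1 intensity was 147, 123 and 146 with shNC and 306, 317 and 300.3 with shPLEKHO1. The lowest shPLEKHO1 value was far above the highest shNC value, and GBP1 rose 2.22-fold (log2 difference 1.15 ± 0.07, limma adjusted p = 1.23e-05). All 5 of its probe sets rose, by 1.01 to 1.54. GBP3 read 261, 233 and 248 with shNC and 427, 461 and 444 with shPLEKHO1, which was 1.81-fold higher (0.85 ± 0.05, limma adjusted p = 1.02e-05). GBP2 was dim, at 39.3, 26.9 and 30.1 with shNC and 47.6, 61.3 and 57.8 with shPLEKHO1. Its groups did not overlap but spread more widely, and it rose 1.72-fold (0.78 ± 0.15, limma adjusted p = 0.00542), with both probe sets up. Whether probes of these genes also match each other's transcripts was not checked, so the rises may not be separate readings. In all, 63 genes rose further than GBP1.

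The IFIT proteins bind viral RNA at its end and block its translation. Of the 4 genes, IFIT1, IFIT2 and IFIT3 fell and IFIT5 rose. IFIT2 intensity was 124, 116 and 97.3 with shNC and 60.4, 71.7 and 59.0 with shPLEKHO1. It fell 1.75-fold (-0.81 ± 0.11, limma adjusted p = 0.00064), and both of its probe sets fell. IFIT3, the partner of IFIT1 in RNA binding, read 227, 240.0 and 238 with shNC and 191, 190.3 and 193 with shPLEKHO1, and fell by less (-0.27 ± 0.05, limma adjusted p = 0.00514). IFIT1 read 266, 244 and 256 with shNC and 222, 229 and 222 with shPLEKHO1. Its groups did not overlap, but the fall was small (-0.17 ± 0.04, limma adjusted p = 0.0185) and did not pass in 6 of 17 alternatives, among them without shNC replicate 1 (adjusted p = 0.0533) or 3 (0.0648) and without shPLEKHO1 replicate 1 (0.0505) or 3 (0.0535). IFIT5 went the other way, at 104, 111 and 108 with shNC and 162, 175 and 167 with shPLEKHO1. It rose 1.56-fold (0.64 ± 0.05, limma adjusted p = 4.15e-05) by the brighter of 2 probe sets. The dimmer one did not pass, at -0.03, and the mean of both was 0.31. Whether probes of the IFIT genes also match each other's transcripts was not checked, so the 3 falls may not be separate readings.

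**Figure D2:**
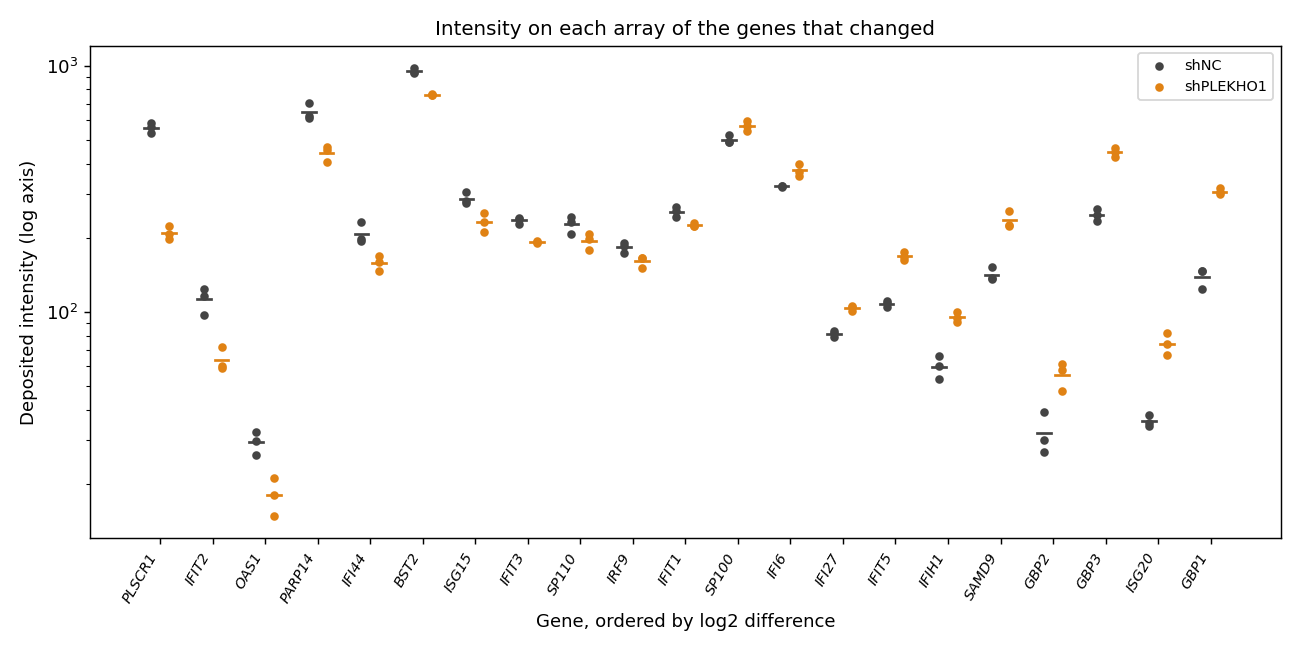
Deposited intensity on a log axis of the 21 interferon-stimulated genes that changed, ordered from the largest fall to the largest rise; each dot is an array (3 with shNC, 3 with shPLEKHO1) and each bar the mean of its group. The groups do not overlap in any of the 21 genes, and the gap is widest for PLSCR1 among the falls and GBP1 among the rises.

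The OAS enzymes sense double-stranded RNA and make 2′-5′-linked oligoadenylate, which switches on the ribonuclease RNase L. OAS1 was dim, at 32.5, 26.1 and 29.9 with shNC and 21.1, 18.1 and 14.9 with shPLEKHO1. It fell 1.62-fold by the probe set read here (-0.70 ± 0.13, limma adjusted p = 0.00333). Of its 4 probe sets 2 fell, and the others were at -0.04 and 0.05, so the mean of all was -0.25. OASL, which has no such activity and acts on RNA sensing, read 92.8, 106 and 101 with shNC and 110.0, 94.9 and 104 with shPLEKHO1, and did not pass (0.05 ± 0.08, limma adjusted p = 0.721). OAS2 (0.12 ± 0.08) and OAS3 (0.04 ± 0.08) were dim and did not pass, although 1 of 5 OAS2 probe sets fell.

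MX1 and MX2 code for dynamin-like GTPases that trap viral nucleoproteins and capsids, and RSAD2 for viperin, which makes a chain-terminating nucleotide. These classical markers of an interferon response were close to the floor of the array. MX1 read 12.3, 9.78 and 12.98 with shNC and 10.1, 9.34 and 9.83 with shPLEKHO1, and MX2 read 13.1 to 17.9 over the 6 arrays. RSAD2 read 10.1, 9.52 and 9.49 with shNC and 11.9, 8.38 and 10.3 with shPLEKHO1. The array's background probe sets with 15, 16 and 17 G or C bases averaged 10.6, 13.6 and 19.99, and what base composition these genes' probes have was not used here. None of these passed, at -0.24 ± 0.10 (limma adjusted p = 0.103), -0.13 ± 0.09 (0.355) and 0.04 ± 0.10 (0.822). MX1 passed without shNC replicate 2 (-0.37, limma adjusted p = 0.00243) and MX2 without shNC replicate 1 (-0.22, 0.0454). CMPK2, a mitochondrial nucleotide kinase, was at 0.06 ± 0.10 and also did not pass.

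IFIH1 codes for MDA5, a cytosolic sensor of long double-stranded RNA, and EIF2AK2 for PKR, the kinase that stops translation on binding such RNA. IFIH1 read 66.3, 53.1 and 60.1 with shNC and 94.1, 90.5 and 99.9 with shPLEKHO1. It rose 1.59-fold (0.67 ± 0.09, limma adjusted p = 0.000711), while its other probe set, at a mean intensity of 9.20, did not pass. EIF2AK2 read 461, 385 and 390.4 with shNC and 399, 416 and 419.7 with shPLEKHO1. The group means were both 412, and its difference had a 95% confidence interval from -0.14 to 0.15 (limma adjusted p = 0.952).

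Among the transcription factors that drive the response, differences were small. IRF9 read 190.5, 174 and 185 with shNC and 151, 165 and 166 with shPLEKHO1. It fell slightly (-0.17 ± 0.05, limma adjusted p = 0.0405), with 1 of 4 probe sets past the threshold, and did not pass in 9 of 17 alternatives, among them the mean of its probe sets (-0.10, 0.188) and the omission of any single array other than shPLEKHO1 replicate 3 (adjusted p from 0.0561 to 0.127). IRF1, which interferon gamma induces strongly, read 287, 289.8 and 294 with shNC and 269, 248 and 255 with shPLEKHO1. All shPLEKHO1 values were lower, but the gene did not pass (-0.16 ± 0.06, limma adjusted p = 0.0671), and it passed in 5 of 17 alternatives, among them without shPLEKHO1 replicate 1 (-0.21, 0.0394). IRF2, an antagonist of IRF1, read 111, 102 and 113 with shNC and 104, 114 and 100.2 with shPLEKHO1, and was at -0.03 ± 0.06 (limma adjusted p = 0.741). IRF7, the amplifier of type I interferon production, was dim, at 26.5 to 33.5 on all arrays, and did not pass (-0.08 ± 0.08).

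**Figure D3:**
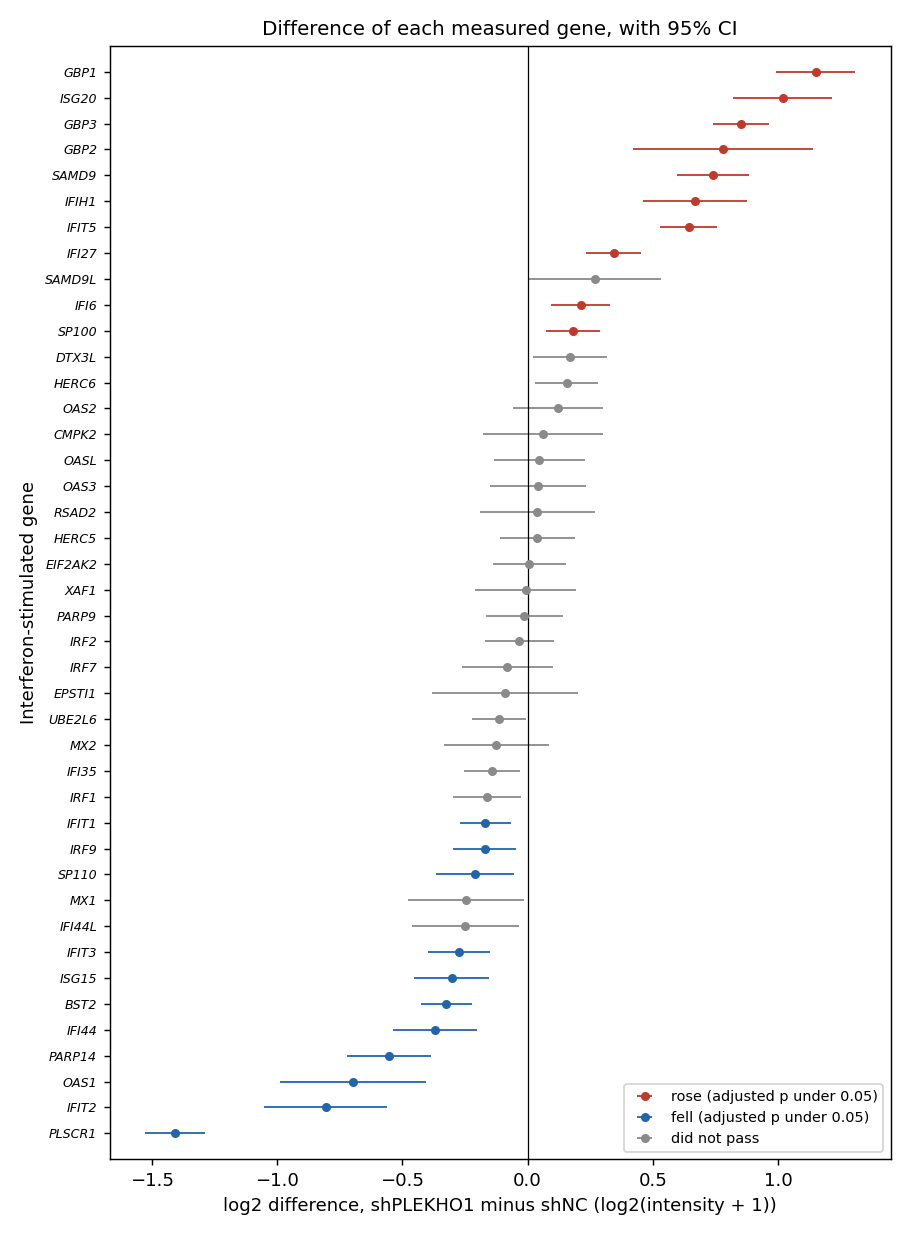
Log2 difference (shPLEKHO1 minus shNC) of each of the 42 measured genes, ordered by size, with its 95% confidence interval from limma; red marks genes that rose, blue those that fell and grey those that did not pass. The genes form a graded series from PLSCR1 at -1.41 to GBP1 at 1.15, with 21 grey points between -0.25 and 0.27.

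ISG15 is a ubiquitin-like modifier that UBE2L6 as the E2 enzyme and HERC5 as the main human ligase attach to new proteins. ISG15 read 306, 277 and 281 with shNC and 230.4, 252 and 211 with shPLEKHO1, and fell 1.23-fold (-0.30 ± 0.06, limma adjusted p = 0.00738). UBE2L6 read 748, 707 and 714 with shNC and 648, 713 and 655 with shPLEKHO1. A single shPLEKHO1 array, replicate 2, reached into the range of the controls, and the gene did not pass (-0.11 ± 0.05, limma adjusted p = 0.106). HERC5 read 209, 178 and 198 with shNC and 194, 214 and 184 with shPLEKHO1, and overlapped throughout (0.04 ± 0.06, limma adjusted p = 0.718). Its relative HERC6 was at 0.16 ± 0.05 with groups that did not overlap and did not pass (limma adjusted p = 0.0616). Outside the list, UBA7, the E1 enzyme of the same chain, which was named after its values were seen, fell from a mean of 117 to 101 (-0.21 ± 0.05, limma adjusted p = 0.0144), but did not pass without shPLEKHO1 replicate 3 (adjusted p = 0.0551).

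PARP9 and DTX3L form a complex that modifies histones and ubiquitin, and PARP14 is a mono-ADP-ribosyltransferase. PARP14 read 702, 612 and 626 with shNC and 452, 407 and 465 with shPLEKHO1. It fell 1.47-fold by its brightest probe set (-0.55 ± 0.07, limma adjusted p = 0.00062). Of its 6 probe sets 2 fell and the least changed was at -0.11, with a mean over all of -0.25. PARP9 read 108, 99.3 and 115 with shNC and 101, 107 and 111 with shPLEKHO1, and was at -0.01 ± 0.07 (limma adjusted p = 0.912). DTX3L read 212, 194 and 192 with shNC and 203, 227 and 236 with shPLEKHO1. Its brightest probe set did not pass (0.17 ± 0.06, limma adjusted p = 0.0817), but its 2 dimmer ones rose, by 0.53 and 0.40, and the mean of its 3 probe sets rose by 0.37 (limma adjusted p = 0.000261). Without shPLEKHO1 replicate 1 the brightest passed too (0.22, limma adjusted p = 0.0387).

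SP100 and SP110 are proteins of nuclear bodies, which silence viral DNA. SP100 read 521, 491 and 487 with shNC and 568, 596 and 543 with shPLEKHO1. It rose slightly (0.18 ± 0.05, limma adjusted p = 0.0181), but its 9 probe sets divided into 3 that rose, 1 that fell and 5 that did not pass, and it was the only listed gene with probe sets changed both ways. Their mean did not pass (0.07, limma adjusted p = 0.237). SP110 read 243, 208 and 232 with shNC and 198, 206 and 178 with shPLEKHO1. It fell (-0.21 ± 0.07, limma adjusted p = 0.0443) with 2 of 5 probe sets, and did not pass in 9 of 17 alternatives. For both genes the call was lost when single arrays were left out, namely shNC replicate 3 (limma adjusted p = 0.0662), shPLEKHO1 replicate 1 (0.0604) or 2 (0.0518) for SP100, and any array other than shNC replicate 2 for SP110 (0.0561 to 0.135).

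Tested one by one, 50 of the 115 probe sets of the listed genes changed (43.5%), against 33.0% of all probe sets. Of 14 changed genes with several probe sets, GBP1, GBP2, IFI27, IFIT2 and PLSCR1 had all of them called in 1 direction. Among genes that did not pass by the probe set read, DTX3L, IFI44L, IRF1, OAS2 and SAMD9L had another that changed.

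**Figure D4:**
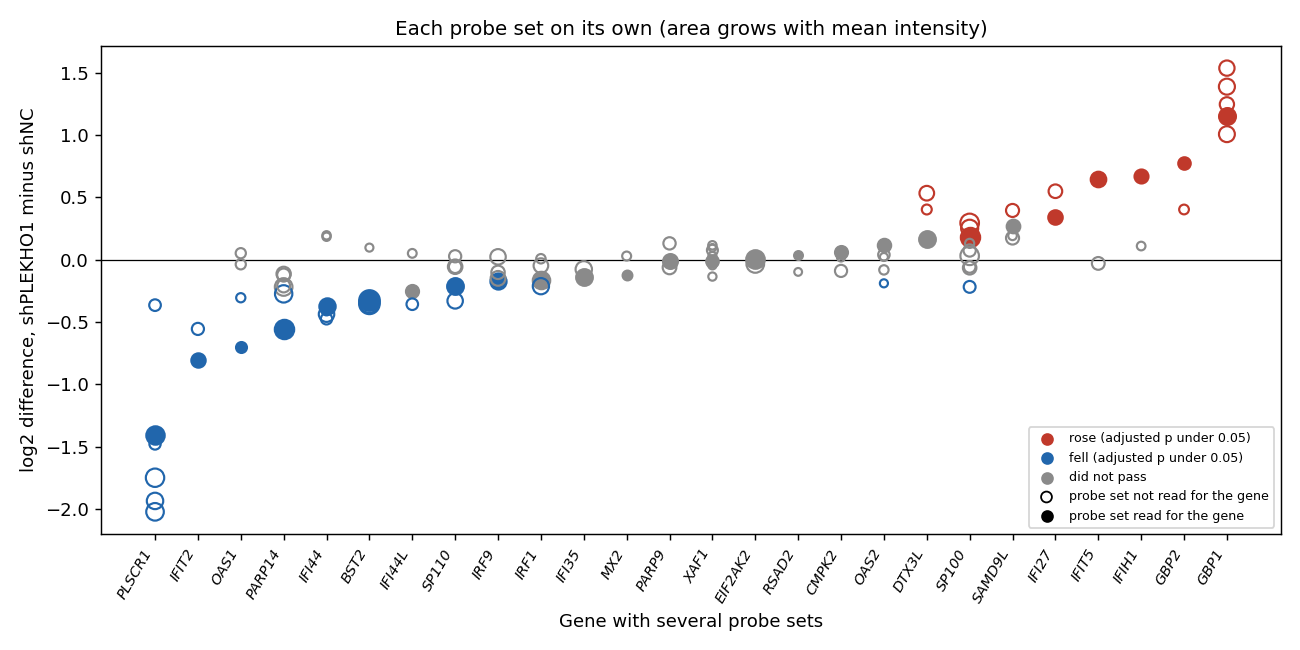
Log2 difference (shPLEKHO1 minus shNC) of each probe set, tested on its own, of the 26 listed genes with several; filled circles are the probe sets read for a gene, open circles the others, and the area grows with mean intensity. The 6 probe sets of PLSCR1 and the 5 of GBP1 all lie on 1 side of 0, while those of SP100 lie on both sides.

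SAMD9 and its relative SAMD9L restrict poxviruses and slow growth by acting on translation. SAMD9 read 152, 135 and 137 with shNC and 223, 257 and 226 with shPLEKHO1. It rose 1.67-fold (0.74 ± 0.06, limma adjusted p = 6.4e-05) on its only probe set. SAMD9L was dim, at 54.8 to 66.4 with shNC and 65.1 to 87.0 with shPLEKHO1, and did not pass (0.27 ± 0.11, limma adjusted p = 0.112), though 1 of its 4 probe sets rose (0.39). The mean of its 4 probe sets rose too (0.26, limma adjusted p = 0.0125).

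ISG20 codes for an exonuclease that degrades viral RNA. Its intensity was 38.1, 34.4 and 35.4 with shNC and 66.6, 82.0 and 73.9 with shPLEKHO1. It was dim by the definition above, yet every shPLEKHO1 value exceeded every shNC value, and it rose 2.03-fold (1.02 ± 0.08, limma adjusted p = 6.32e-05). BST2, or tetherin, which ties budding virus to the cell surface, was the brightest gene of the list. It read 974, 933 and 937 with shNC and 767, 759 and 761 with shPLEKHO1, and fell 1.25-fold (-0.32 ± 0.04, limma adjusted p = 0.000745). Of its 4 probe sets 3 fell alike, between -0.36 and -0.32, and the last, at a mean intensity of 6.87, did not pass. XAF1, a promoter of apoptosis, and EPSTI1 were dim and did not pass, at -0.01 ± 0.09 and -0.09 ± 0.13, and none of the 7 XAF1 probe sets passed. EPSTI1 passed without shPLEKHO1 replicate 1 (-0.24, limma adjusted p = 0.0398).

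The genes named IFI are a mixed group. IFI27, a small mitochondrial and membrane protein, read 81.6, 83.2 and 78.8 with shNC and 104, 105 and 100.2 with shPLEKHO1. It rose 1.27-fold (0.34 ± 0.05, limma adjusted p = 0.000803), as did its other probe set (0.55). IFI6, of the same protein family, read 326, 325 and 321 with shNC and 369.7, 399 and 356 with shPLEKHO1, and rose 1.16-fold (0.21 ± 0.05, limma adjusted p = 0.0131). IFI44 went down, at 231, 195 and 197 with shNC and 159, 169 and 146 with shPLEKHO1. It fell 1.29-fold (-0.37 ± 0.07, limma adjusted p = 0.00511), with 4 of 6 probe sets down and the 2 dimmest, at mean intensities of 7.92 and 7.99, not passing. Its relative IFI44L, at 53.8 to 62.5 with shNC and 44.3 to 54.8 with shPLEKHO1, did not pass (-0.25 ± 0.09, limma adjusted p = 0.0751), though 1 of its 3 probe sets fell (-0.36), and it passed without shPLEKHO1 replicate 2 (-0.32, 0.0322). IFI35 read 225, 217 and 219 with shNC and 186, 207 and 199 with shPLEKHO1. Its groups did not overlap and it did not pass (-0.14 ± 0.05, limma adjusted p = 0.0528).

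Many interferon-stimulated genes lie side by side on a chromosome, and by RefSeq gene order 25 of the measured genes formed 15 neighbouring pairs, 12 of them with no other protein-coding gene between. Both genes rose in 2 pairs, both fell in 2, 1 rose and 1 fell in 2, only 1 changed in 4 and neither changed in 5. GBP3, GBP1 and GBP2, adjacent on chromosome 1, all rose, by 0.85, 1.15 and 0.78. On chromosome 10, IFIT2, IFIT3 and IFIT1 were at -0.81, -0.27 and -0.17, and IFIT5 next to IFIT1 was at 0.64. The confidence interval of IFIT5 (0.53 to 0.76) does not meet that of IFIT1 (-0.27 to -0.07), and the difference between the genes was not tested. In the OAS cluster on chromosome 12, OAS1 fell (-0.70) and its neighbours OAS3 and OAS2 did not pass (0.04 and 0.12). SP110 and SP100 on chromosome 2, with SP140 and SP140L between them, were called in opposite directions. The 2 opposite pairs, IFIT1 with IFIT5 and SP110 with SP100, were not firm. The calls of IFIT1, SP110 and SP100 were each lost in some alternatives, and the mean of the SP100 probe sets did not pass. Neighbours can share control sequences and were not treated as independent.

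**Figure D5:**
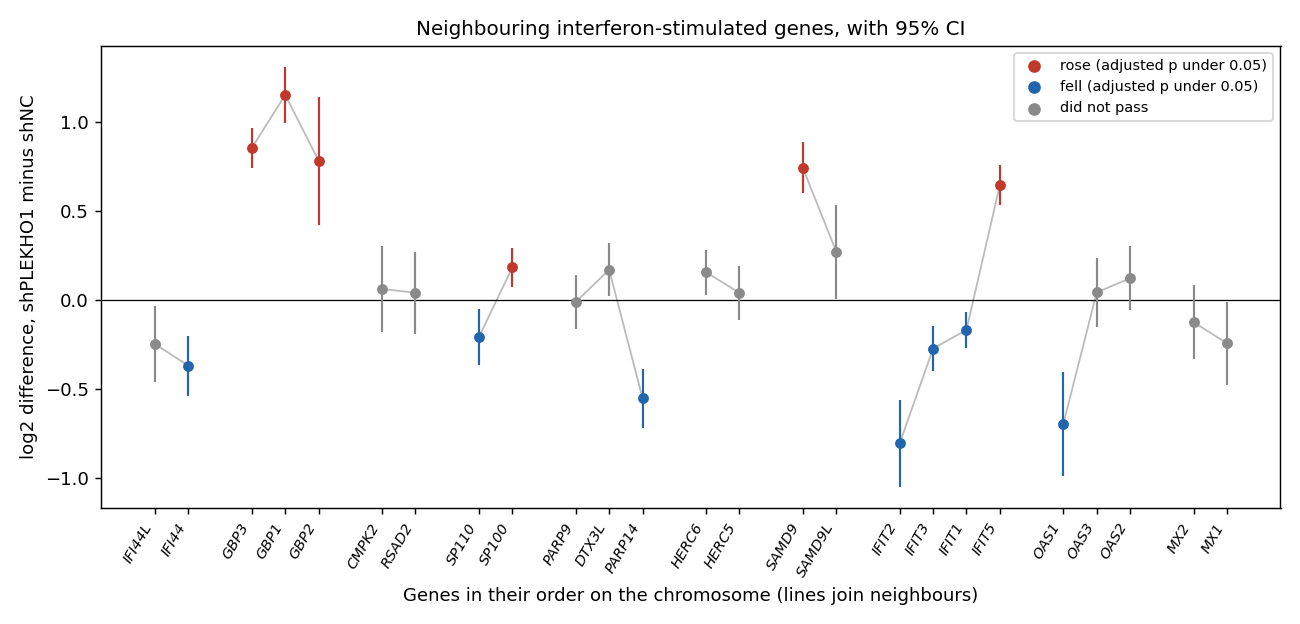
Log2 difference (shPLEKHO1 minus shNC) with its 95% confidence interval of 25 genes that neighbour another listed gene, in chromosomal order; grey lines join neighbours. The 3 GBP genes stand together above 0. IFIT5, at 0.64 by the brighter of its 2 probe sets, stands apart from IFIT2, IFIT3 and IFIT1 below 0.

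Other genes of the interferon pathway were read from a list of 40, from ligands to regulators, of which 37 were measured. Of these, 6 rose, 8 fell and 23 did not pass (37.8% changed, against 34.1% of all genes), with a median log2 difference of 0.00. None of 7 interferon genes passed, and their values lay between 5.93 and 18.4 on all arrays. The array's background probe sets with 11 to 17 G or C bases averaged 5.84 to 19.99. Whether the interferon genes were detected at all was not tested. Among 6 receptor genes 3 fell and none rose. IL10RB, the chain shared by type III interferon and interleukin 10 receptors, read 395, 369.8 and 362 with shNC and 236, 244 and 245 with shPLEKHO1, and fell 1.54-fold (-0.62 ± 0.05, limma adjusted p = 3.53e-05). IFNGR2, a chain of the interferon gamma receptor, read 812, 749 and 792 with shNC and 609, 607 and 618 with shPLEKHO1, and fell 1.28-fold (-0.36 ± 0.05, limma adjusted p = 0.000515). IFNAR1 and IFNAR2, the type I receptor chains, which were picked for mention after their values were seen, did not pass (0.08 ± 0.04 and 0.07 ± 0.05). For IFNAR1 this depended on the probe set: 2 of its 4 probe sets fell and none rose, and the mean of its probe sets fell (-0.25, limma adjusted p = 0.00124).

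Downstream of the receptors, SOCS3, a feedback inhibitor of JAK kinases that cytokines such as interleukin 6 induce, had the largest change of the pathway list. It read 58.6, 53.8 and 55.0 with shNC and 117, 126 and 107 with shPLEKHO1, and rose 2.08-fold (1.06 ± 0.07, limma adjusted p = 1.76e-05), with both probe sets up. Of 10 sensors and adaptors 3 rose and 2 fell. TBK1, the kinase that activates IRF3, rose 1.44-fold, reading 349, 314 and 341 with shNC and 489, 501 and 462 with shPLEKHO1. CGAS, the sensor of cytosolic DNA, rose 1.25-fold, at 72.6, 70.0 and 70.8 with shNC and 86.2, 90.1 and 89.9 with shPLEKHO1. MAVS, the mitochondrial adaptor of MDA5, fell 1.30-fold (-0.38 ± 0.05), with 5 of its 7 probe sets down, and TRIM25, a ligase of ubiquitin and ISG15, fell 1.26-fold (-0.33 ± 0.05), with 1 of 2. ABCE1, an inhibitor of RNase L that also recycles ribosomes, rose 1.43-fold (0.52 ± 0.06), with all 5 probe sets up. The limma adjusted p of these 5 genes was at most 0.0012.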

How the data were processed

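Total RNA was measured on 6 Affymetrix arrays (3 shNC, 3 shPLEKHO1). The authors deposited linear intensity values, with a value for each probe set. They used Affymetrix Expression Console (submitters' processing notes); its version, algorithm and normalization: not given in the sources used here. Precision is limited by the number of arrays.

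Of 49395 probe sets, 44988 with 1 gene symbol were used; outdated symbols were replaced by Entrez identifier from RefSeq (GRCh38.p14). log2(intensity + 1) values, computed from the deposited intensities, were quantile-normalized over all probe sets. A gene was read from the probe set with the highest mean of these values. The 2 groups were tested by limma 3.58.1 under R 4.3.3 (lmFit, eBayes; no covariates), with a threshold of 0.05 after Benjamini-Hochberg adjustment; errors beside differences are SE. Steps were tested on simulated data.

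Listed genes given with every array's value were those that changed or had a mean above the median. Up to 6 of the most studied others were added. From the pathway list, up to 4 rises and 4 falls with the smallest p were picked. Of these, ABCE1, MAVS and TRIM25 are given without the value on each array. The genes and lists were chosen with earlier results of these data known.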

Additional observations from a re-analysis of the deposited data

How the results depend on the processing

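Across 17 alternatives, between 17 and 25 of the interferon-stimulated genes changed, with 9 to 12 rises and 8 to 14 falls, and 13 to 15 of the pathway genes changed (6 to 7 rises, 7 to 9 falls). The shares of all genes that changed in these alternatives are not given here. These counts, and those with the replicate block below, therefore cannot be set against such a share. Of the 21 genes that changed, 17 passed in the same direction in every alternative that gave a value (9 rises, 8 falls); the exceptions, IFIT1, IRF9, SP100 and SP110, lost the call in at least 1. A further 10 genes gained a call in at least 1 alternative, namely MX1, MX2, IRF1, UBE2L6, HERC6, DTX3L, SAMD9L, EPSTI1, IFI35 and IFI44L. No listed gene that passed in any alternative had the opposite direction there. Reversals were seen in 2 pathway genes, both with the mean of probe sets: IFNAR1, at 0.08 (limma adjusted p = 0.247) from its brightest probe set and at -0.25 (0.00124) with the mean of its 4, and TRAF3, at -0.22 (limma adjusted p = 0.0269) from its brightest probe set and at 0.10 (0.156) with the mean of its 3 probe sets. The median of all genes stayed between 0.00 and 0.03 in every alternative. Leaving out the lowest 30% of genes removed 6 listed genes. The alternative that picks probe sets by mean intensity was chosen after seeing the data.

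The labels number replicates without saying that numbers are shared between groups. Deviations of same-numbered arrays correlated at -0.16, -0.16 and -0.05, and 0 of 6 arrays correlated best with its own number, so the numbers were not taken as pairs. With the replicate number as a block, 18 listed genes changed (9 rose, 9 fell) and 14 pathway genes did.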
